A study of Homo sapiens with 2 samples.

Results

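The keratin genes are the protein-coding genes of GENCODE release 44 (mapped to GRCh37, the sequence of hg19) on chromosomes 12 and 17 whose symbol is KRT followed by a number, the keratin-associated proteins (KRTAP) being left out. The rule gave 55 genes out of 20098 protein-coding genes on the autosomes and the X chromosome, 27 of them on chromosome 12 and 28 on chromosome 17. Each was examined for CHD4 peaks in the gene or the 2000 bp before its start. CHD4 occupancy was measured by chromatin immunoprecipitation and sequencing (ChIP-seq) in 501Mel, an established human melanoma cell line with no treatment or genetic change named in the labels, grown in RPMI 1640 with foetal calf serum. Chromatin was fixed with 0.4% paraformaldehyde, and there was 1 CHD4 ChIP library and 1 input library, so no value below has a replicate error and all comparisons are descriptions. The data are a list of 60126 broad peaks, of which 60099 lay on the autosomes and the X chromosome. The list holds no read counts, so the depth behind a peak is not in it, and it holds no measure of expression with which the melanoma label could be checked. A peak that is not listed fell under the threshold of the call, which is not the same as an absence of CHD4.

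CHD4 is an ATPase of the NuRD complex, which couples nucleosome remodelling to histone deacetylation. Keratins are the intermediate filament proteins of epithelial cells. Each filament pairs a type I with a type II keratin, such as KRT18 with KRT8 in simple epithelia, KRT14 with KRT5 in the basal layer of the epidermis, and KRT10 with KRT1 in the layers above it. The type II genes are clustered on chromosome 12 and the type I genes on chromosome 17, except for KRT18, a type I gene that lies beside KRT8 at the end of the chromosome 12 cluster. Melanocytes, from which melanomas arise, are not epithelial cells, and their main cytoplasmic intermediate filament protein is vimentin.

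Only 4 of the 55 keratin genes held a CHD4 peak, namely KRT80 and KRT86 on chromosome 12 and KRT20 and KRT23 on chromosome 17. The sequences under the peak closest to a keratin gene start on each chromosome and under the strongest peak in a keratin gene are shown, since these are the sites at which CHD4 was called nearest to or most strongly in a keratin gene. They are given on the plus strand of GRCh37, whole or as the central 300 bases, with motifs in capitals. The motifs searched, on both strands, were the AP-1 motif (TGACTCA or TGAGTCA), the GC box (GGGCGG) and the TATA box (TATAAA). The first sequence is the whole peak before KRT80 at chr12:52586308-52586551, and it held none of these motifs. The next is the centre of the peak before KRT20, at chr17:39042319-39042618, which held a TATA box, read as TTTATA since it lies on the minus strand, and an AP-1 motif. The last is the centre of the strongest peak in KRT23, at chr17:39089321-39089620, with a TATA box on each strand.
KRT80 peak: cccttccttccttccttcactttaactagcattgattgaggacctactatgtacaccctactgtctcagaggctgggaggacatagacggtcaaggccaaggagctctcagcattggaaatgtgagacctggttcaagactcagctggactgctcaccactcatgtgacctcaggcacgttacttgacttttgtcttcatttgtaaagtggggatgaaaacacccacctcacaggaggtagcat
KRT20 peak: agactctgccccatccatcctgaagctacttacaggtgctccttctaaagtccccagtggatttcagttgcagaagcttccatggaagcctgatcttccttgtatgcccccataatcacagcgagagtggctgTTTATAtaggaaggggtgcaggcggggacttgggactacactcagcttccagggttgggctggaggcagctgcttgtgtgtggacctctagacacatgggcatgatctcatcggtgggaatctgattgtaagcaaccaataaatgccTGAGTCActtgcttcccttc
KRT23 peak: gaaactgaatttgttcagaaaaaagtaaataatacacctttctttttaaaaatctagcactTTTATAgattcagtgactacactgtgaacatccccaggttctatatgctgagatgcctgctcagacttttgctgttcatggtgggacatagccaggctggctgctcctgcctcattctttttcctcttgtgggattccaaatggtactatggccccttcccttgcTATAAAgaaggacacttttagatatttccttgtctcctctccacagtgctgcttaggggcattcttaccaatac
In the central 300 bases of all peaks, the AP-1 motif was found in 6.30%, the GC box in 8.32% and the TATA box in 20.8%. A motif here is a match of letters and not a measured binding site.

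The share of keratin genes with a peak was 7.27% (Wilson 95% interval 2.86 to 17.3). Among all 20098 protein-coding genes the share was 58.5% (57.8 to 59.2), that is 11753 genes. These intervals cover counting error only, and neighbouring genes of a cluster are not independent of each other. The shares of the clusters were close to each other, with 2 of 27 keratin genes on chromosome 12 (7.41%, 2.06 to 23.4) and 2 of 28 on chromosome 17 (7.14%, 1.98 to 22.6), whereas 59.1% of all coding genes of chromosome 12 and 61.7% of those of chromosome 17 held a peak.

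Keratin genes are short, with a median of 7098 bp against 27256 bp for all coding genes, and a short gene has less room for a peak. The 12013 coding genes whose length lay within the keratin range, 3888 to 59864 bp, held a peak in 55.6% of cases (54.7 to 56.4). When each keratin gene was set beside the genes within 25% of its own length, the share averaged 44.7%, which corresponds to 24.6 of 55 genes, against the 4 observed.

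**Figure D1:**
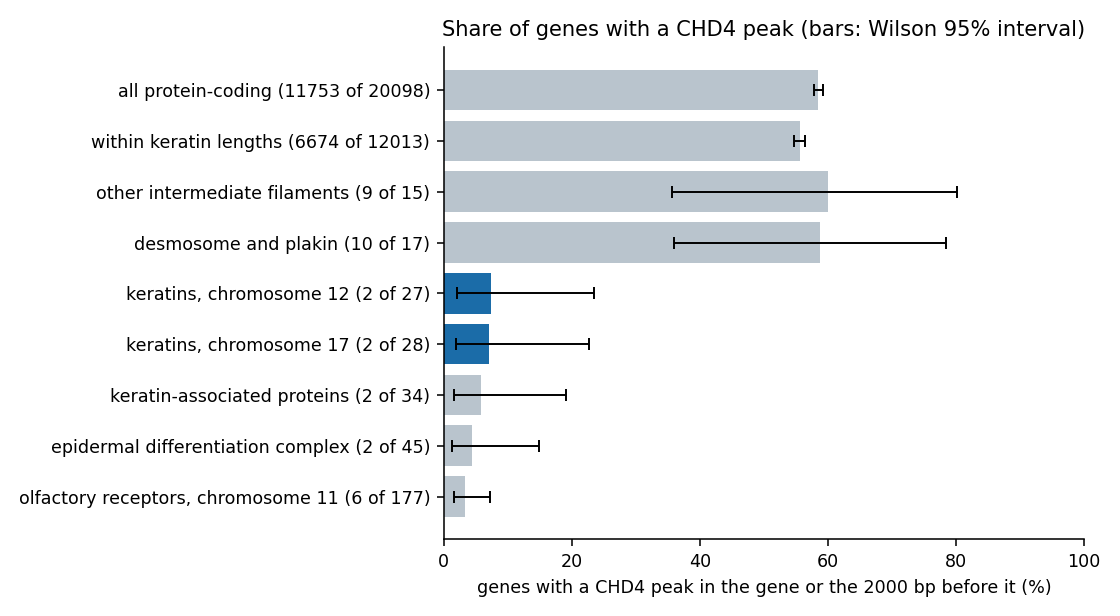
Percent of genes with a CHD4 peak in the gene or the 2000 bp before it, for the keratin genes of each chromosome (blue) and for other gene groups (grey), with the Wilson 95% interval of each share as the error bar. The bars of both keratin clusters end at 7.41% and 7.14%, while all coding genes, other intermediate filament genes and desmosome and plakin genes lie between 55.6% and 60%.

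The 6 peaks at keratin genes ran from 2.68 to 3.80 in fold enrichment, and the 3 above the median of the list were all at KRT23. Fold enrichment is the ratio of ChIP signal to background that the peak caller gave, and −log10 q is its significance after correction for multiple testing. Over all listed peaks the median fold enrichment was 3.09, the highest was 16.7 and the median −log10 q was 1.97. No keratin gene held a peak of fold enrichment 4 or more, or of −log10 q 5 or more. Such peaks were rare in the whole list, where 94.5% had a fold enrichment under 4.00 and 97.7% a −log10 q under 4.94. The 6 peaks are therefore too few to set the keratins apart at these levels. The share of all coding genes with such a peak was not computed. With peaks of −log10 q 2 or more, 1 keratin gene remained, KRT23 (1.82%), while 8719 of all coding genes (43.4%) kept at least 1.

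KRT80 (ENSG00000167767, minus strand, chr12:52562780-52585798) encodes a type II keratin found widely in epithelia. Its single peak, 244 bp long, lay 510 bp before the start of the gene, within the long non-coding RNA gene LINC00592 but outside its canonical exons. The fold enrichment was 3.09 and the −log10 q 1.80, and 49.7% of all peaks had a lower fold enrichment. This was the keratin start closest to a peak.

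KRT20 (ENSG00000171431, minus strand, chr17:39032141-39041494) encodes a type I keratin of the intestinal epithelium and of Merkel cells. Its peak at chr17:39042261-39042676, 416 bp long, lay 767 bp before the start and outside any annotated gene. Its fold enrichment, 2.68, and its −log10 q, 1.26, made it the weakest at a keratin gene, with 9.63% of all peaks lower. KRT80 and KRT20 alone among the keratins had a peak that close, within 1000 bp on either side of the gene start (3.64%), against 33.9% of all coding genes.

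KRT23 (ENSG00000108244, minus strand, chr17:39078952-39093898), a type I keratin, was the only keratin gene with more than 1 peak. The strongest of its 3 peaks, at chr17:39089263-39089677 in intron 2, reached 3.80 in fold enrichment and 3.40 in −log10 q, above 90.4% of all peaks by fold enrichment. A second peak lay in the same intron at chr17:39088403-39088652, and reached 3.10 in fold enrichment and 1.83 in −log10 q. The remaining one, at chr17:39078148-39079390, was 1243 bp long and covered the 3′ end of the gene, with 384 bp in exon 9 of 9, 55 bp in intron 8 and 804 bp beyond the gene, with 3.35 in fold enrichment and 2.29 in −log10 q. The peaks were thus in the body and at the end of the gene, and its start was 4.22 kb from the nearest of them. All 3 also overlapped the record of the long non-coding RNA gene ENSG00000234477, which runs on the opposite strand, and ChIP-seq does not tell the strands apart.

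KRT86 (ENSG00000170442, plus strand, chr12:52643084-52702947) encodes a type II keratin of the hair shaft. Its peak at chr12:52672692-52673126 lay in intron 2 of the canonical transcript, 4.26 kb after the canonical start and 29.6 kb after the first base of the gene record, and it also fell on an exon of the long non-coding RNA gene ENSG00000257830. The fold enrichment was 2.87 and the −log10 q 1.37, with 25.4% of all peaks lower by fold enrichment. The long record of KRT86, 59864 bp, contains KRT81, which held no peak of its own.

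**Figure D2:**
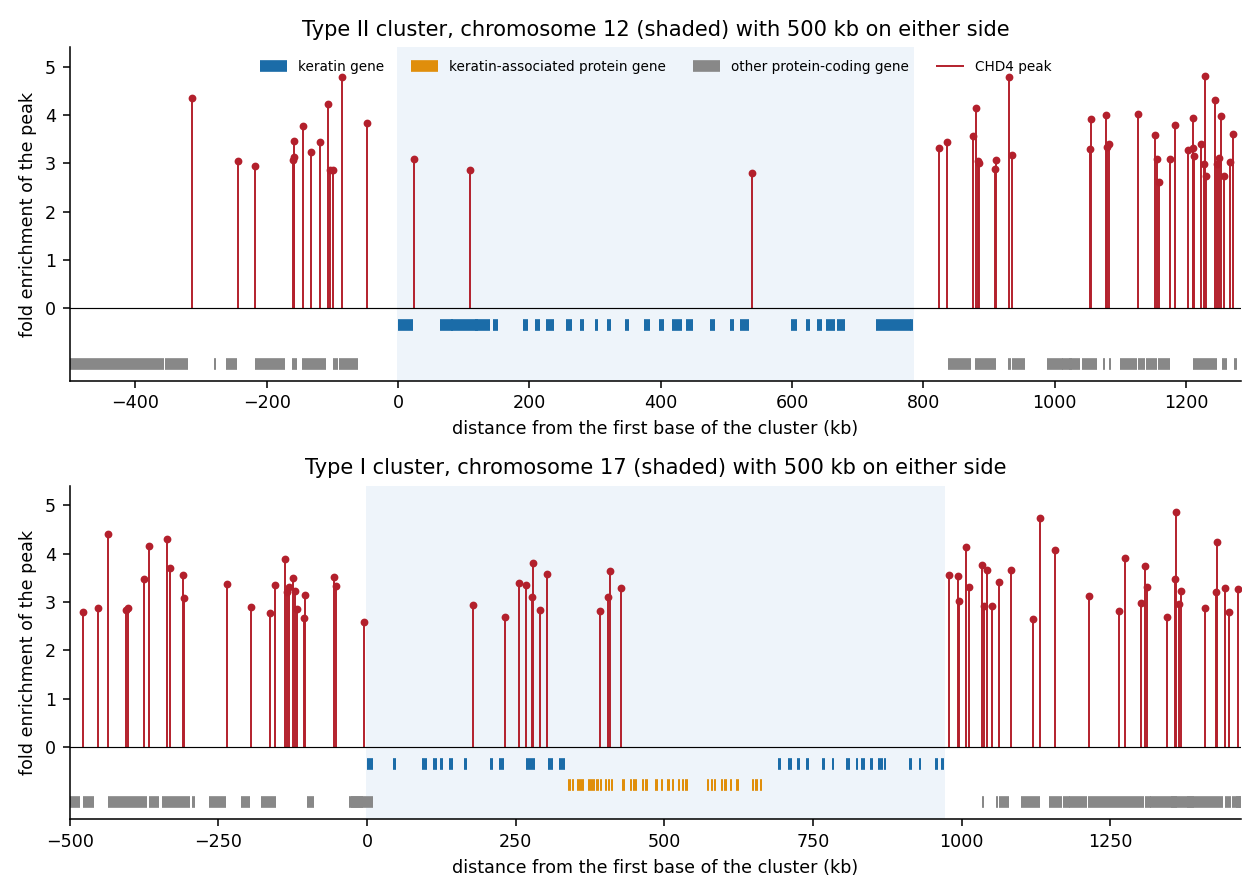
Position of CHD4 peaks (red, height as fold enrichment) in and around the type II cluster of chromosome 12 and the type I cluster of chromosome 17, in kb from the first base of the cluster (shaded), with 500 kb on either side and the genes drawn below as blocks. The type II cluster holds 3 peaks and the type I cluster 12, these being gathered in a stretch of 250 kb, and the taller peaks, of fold enrichment 4 or more, all stand outside the shaded regions.

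KRT8 and KRT18, the keratin pair of simple epithelia, held no listed peak. KRT8 (ENSG00000170421, minus strand, chr12:53290971-53343738) has a record of 52768 bp, and 67.3% of the 2657 coding genes of like length had a peak. Its canonical transcript, however, starts at chr12:53298860 and so takes up only a small part of that record. KRT32, at 7874 bp, is close to that part in size, and genes of like length to it had a peak in 45.3% of cases. KRT18 (ENSG00000111057, plus strand, chr12:53342655-53346690) has a much shorter record than KRT8, and of the 1140 genes of like length 36.9% had a peak. The starts of the gene records, KRT8 at 43.4 kb and KRT18 at 44.5 kb, were nearly the same distance from the nearest peak, at chr12:53387123-53387632, which lies beyond the cluster and 12434 bp from the translation initiation factor gene EIF4B. Measured from the canonical start, the distance was 88.3 kb for KRT8 and 44.2 kb for KRT18. The other 53 keratin genes held a peak in 4 cases (7.55%, 2.97 to 17.9), with starts 0.510 to 268 kb from the nearest peak and a median of 88.2 kb. The pair therefore lay inside the range of the rest, and 2 genes are too few to set a share of 0 apart from 7.55%.

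The remaining keratins of simple epithelia are KRT7, with its start 39.8 kb from a peak, and KRT19, at 104 kb. Neither held a peak. With KRT80, KRT20 and KRT23, the group taken here as simple epithelial had a peak in 3 of its 7 genes (42.9%, 15.8 to 75.0). KRT80, however, is found widely in epithelia. That was the highest share of any role group, but its interval includes the 58.5% of all coding genes. The share also depends on the placing of KRT80 and KRT23 in this group, without which KRT20 alone held a peak. The groups were set with earlier results of these data known. Genes of like length to each of the 7 held a peak in 36.9% (for KRT18) to 67.3% (for KRT8) of cases. With peaks of −log10 q 2 or more, KRT23 alone remained. These roles overlap in part, and the interval is wide.

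None of the keratins of the basal epidermis, KRT5, KRT14 and KRT15, held a peak (0 of 3), and their starts lay 187, 45.6 and 110 kb from one. The suprabasal keratins KRT1, KRT2, KRT9, KRT10, KRT77, KRT78 and KRT79, of which KRT1 and KRT10 replace the basal pair as epidermal cells differentiate, had none either (0 of 7, upper bound 35.4%). Of these, KRT10 lay 10.4 kb and KRT1 27.3 kb from a peak. The start of KRT77 was 4.23 kb from a peak of fold enrichment 2.79 at chr12:53101539-53101737, which enters only if 5000 bp before the start are counted, and 5 keratin genes (9.09%) then had a peak against 60.7% of all coding genes.

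The keratins of mucosa and cornea, KRT3, KRT4, KRT12, KRT13, KRT24 and KRT76, held no peak (0 of 6, upper bound 39.0%), with KRT12, a keratin of the corneal epithelium, nearest at 18.8 kb. Nor did the keratins induced in wounds and present in the nail bed, KRT6A, KRT6B, KRT6C, KRT16 and KRT17 (0 of 5, upper bound 43.4%). In that group the type II genes were far from any peak, at 214 kb for KRT6A, 173 kb for KRT6B and 194 kb for KRT6C, and the type I genes were near, at 16.6 kb for KRT16 and 7.69 kb for KRT17. The last 2 lie at the end of the chromosome 17 cluster, where peaks resume.

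The 11 type I hair keratins, KRT31 to KRT40, held no peak (upper bound 25.9%). They included the keratin starts most remote from a peak, those of KRT33A at 268 kb, KRT33B at 263 kb, KRT34 at 250 kb and KRT31 at 235 kb. KRT39 and KRT40, which sit apart from the others and next to KRT23, were closer, at 8.62 and 28.8 kb. Among the 6 type II hair keratins KRT86 alone had a peak (16.7%, 3.01 to 56.4). The keratins of the inner root sheath and companion layer of the hair follicle, KRT25 to KRT28 and KRT71 to KRT75, held none (0 of 9, upper bound 29.9%), and neither did KRT222, whose start lay 16.2 kb from one.

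**Figure D3:**
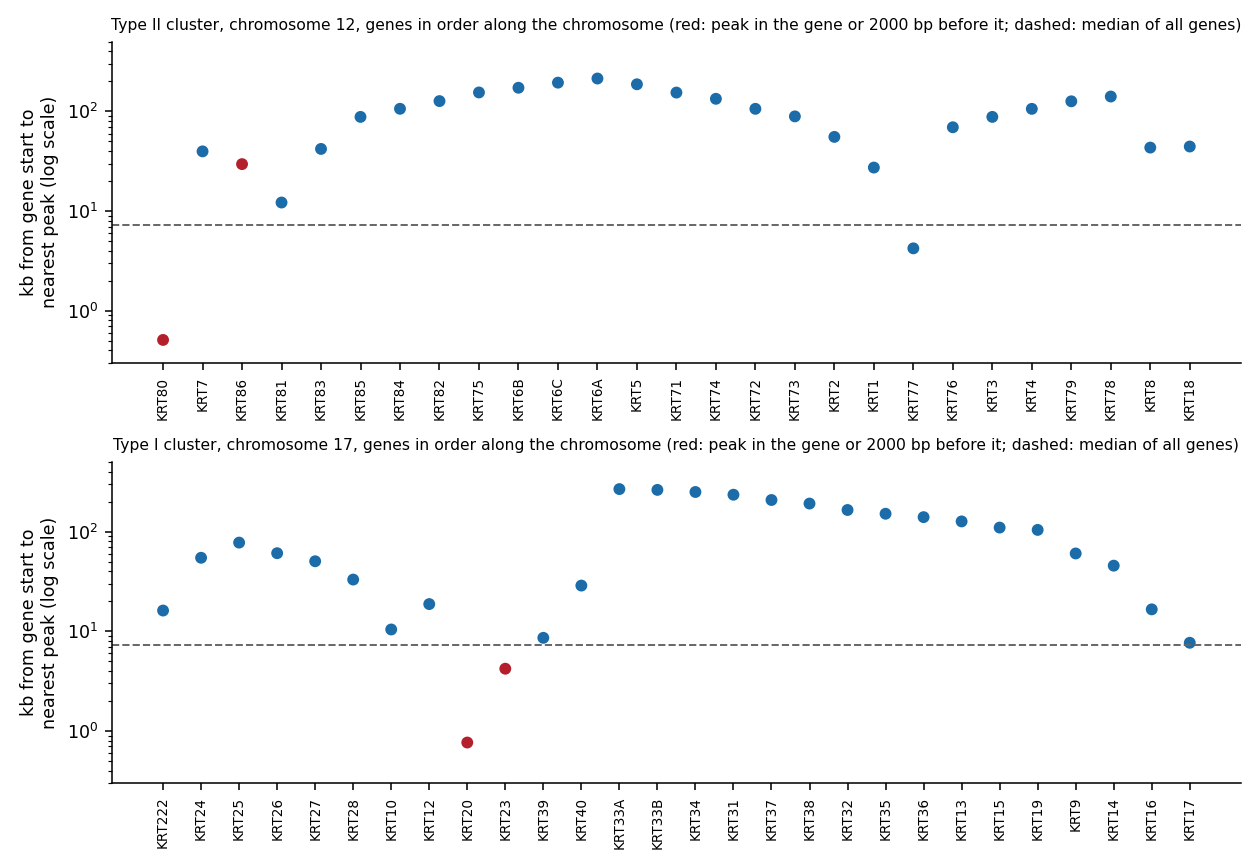
Distance in kb, on a log scale, from the start of each keratin gene to the nearest CHD4 peak, with genes in order along each chromosome, genes with a peak in red and the median of all coding genes, 7.32 kb, as a dashed line. The distances rise to 214 kb at KRT6A on chromosome 12 and to 268 kb at KRT33A on chromosome 17, and only 4 starts lie below the dashed line.

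The starts of the keratin genes had a median distance of 88.1 kb to the nearest peak, 89.2 kb on chromosome 12 and 60.7 kb on chromosome 17. The median was 7.32 kb for all coding genes and 5.55 kb for those within the keratin length range. Of the keratin starts, 25 (45.5%) lay 100 kb or more from a peak, against 14.0% of coding genes, and 4 lay within 5 kb, against 46.0% of coding genes. Genes that follow each other share the same nearest peak, so these distances are not independent.

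The type II cluster, from KRT80 to KRT18, spans 784 kb at chr12:52562780-53346690 and contains no coding gene other than its 27 keratins. It held 3 peaks, or 3.83 per Mb, and 0.112% of its bases were under a peak, where windows of the same length had medians of 14.0 peaks per Mb and 1.19%. The 3 peaks had fold enrichments of 2.79 to 3.09 and none reached a −log10 q of 2. Over 3541 such windows tiled along the genome, 690 (19.5%, 18.2 to 20.8) held fewer peaks. This position was lower among windows rich in genes: of the 662 windows with at least 10 coding genes, which had a median of 26 peaks, 4.98% (3.57 to 6.92) held fewer. The cluster has a GC content of 49.1% against 40.1% for the median window, and among the 130 windows within 1 percentage point of it 4.62% held fewer peaks. Among the 163 windows of chromosome 12, with a median of 12 peaks, 20.9% held fewer.

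The type I cluster, from KRT222 to KRT17, spans 970 kb at chr17:38810917-39781094 and contains 63 coding genes, of which 34 are KRTAP genes placed between the keratins. It held 12 peaks, or 12.4 per Mb, near the median of 15.5 per Mb for windows of its length, and 0.968% of its bases were under a peak against a median of 1.26%. Of 2848 windows, 1212 (42.6%, 40.8 to 44.4) held fewer peaks. Among the 686 windows with at least 10 coding genes 15.6% held fewer, and among the 78 windows of chromosome 17, with a median of 32.5 peaks, 19.2% did. Of the 359 windows within 1 percentage point of its GC content of 42.8%, with a median of 20 peaks, 30.1% held fewer. The cluster thus held fewer peaks than most gene-rich windows and most windows of chromosome 17, and was close to the median of all windows. Its fold enrichments ran from 2.68 to 3.80, the highest being the intronic peak of KRT23, and 6 of the 12 peaks reached a −log10 q of 2.

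**Figure D4:**
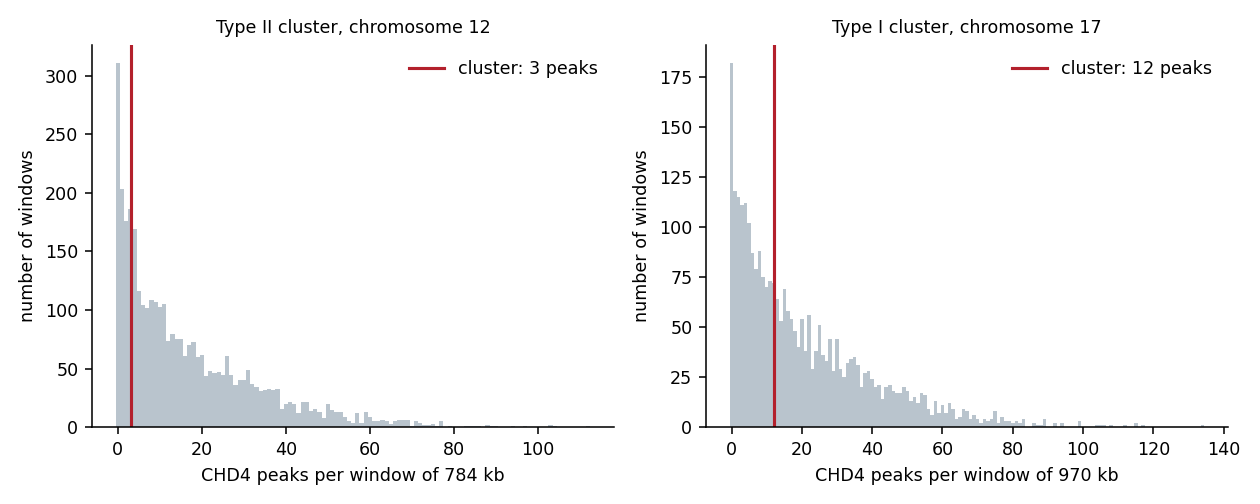
Number of genome windows (vertical axis) by their number of CHD4 peaks (horizontal axis), for windows of the length of the type II cluster (left, 784 kb) and of the type I cluster (right, 970 kb), with the cluster as a red line. The type II cluster, with 3 peaks, lies left of the median window of 11 peaks, and the type I cluster, with 12, is close to the median of 15.

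Within the clusters the peaks were unevenly placed. On chromosome 12, 428 kb without a peak (chr12:52673127-53101538) held 17 keratin genes from KRT81 to KRT77, and the following 285 kb held 7 more, from KRT76 to KRT18. On chromosome 17, 549 kb without a peak (chr17:39239469-39788779) held 39 coding genes, 16 of them keratins from KRT33A to KRT17. Stretches of this length without a peak are usually poor in genes. Of 59954 intervals between neighbouring peaks, 822 were at least as long as the one on chromosome 17, that one included. Their median was 1 coding gene, and 3 of them, again with that one included, held as many genes. For the 428 kb on chromosome 12 the corresponding numbers, with that stretch itself counted, were 1161, a median of 1 and 25.

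The 12 peaks of the type I cluster lay in a stretch of 250 kb that runs from KRT10 to the first KRTAP4 genes. In both clusters together, 6 of the 15 peaks were in reach of a keratin gene, 2 in reach of a KRTAP gene and 7 in reach of neither. Those in neither included a peak of fold enrichment 3.57 that lay 85 bp past the end of KRT39, inside the record of ENSG00000234477, and 1 of fold enrichment 2.93 on an exon of KRT10-AS1, the RNA antisense to KRT10.

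The DNA on either side was richer in peaks. The 500 kb before and after the type II cluster held 14 and 36 peaks (28 and 72 per Mb), with a highest fold enrichment of 4.80. Those before and after the type I cluster held 26 and 31 (52 and 62 per Mb), with a highest fold enrichment of 4.85. Of the coding genes in these flanks, 5 of 10 and 13 of 20 around the type II cluster held a peak, as did 9 of 12 and 14 of 21 around the type I cluster. JUP, which encodes plakoglobin, a protein of the desmosomes to which keratin filaments are attached, is in the flank after the type I cluster, and a peak with 4.73 in fold enrichment and 5.69 in −log10 q lay 111 bp before its start.

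The 34 KRTAP genes, which encode matrix proteins of the hair shaft, had a share close to that of the keratins, with 2 genes holding a peak (5.88%, 1.63 to 19.1). These were KRTAP4-7 (fold enrichment 3.28) and KRTAP2-3 (3.11). Among the 15 other intermediate filament genes, 9 held a peak (60%, 35.7 to 80.2), close to the 58.5% of all coding genes. The strongest were at BFSP2, a filament protein of the eye lens, at 4.71, LMNA, which encodes nuclear lamins A and C, at 4.23, and BFSP1, the lens partner of BFSP2, at 3.96. VIM, which encodes vimentin, held 1 peak of fold enrichment 2.87 and −log10 q 1.37, 0.329 kb from its start. Both values equal those of the KRT86 peak, and VIM held no peak of −log10 q 2 or more. The desmosome and plakin genes, whose products anchor keratin filaments, also had a share close to that of all coding genes, with a peak in 10 of 17 cases (58.8%, 36.0 to 78.4), the strongest at JUP, at DST (4.44) and at EVPL (4.01). Many of these genes are longer than the keratin genes, with a median of 45377 bp for the desmosome and plakin genes and 13209 bp for the other intermediate filament genes. The other intermediate filament genes without a peak, DES, NEFM, NEFL, INA, PRPH and NEFH, were 13209 bp or shorter. Of those with a peak, VIM and NES had 9353 and 8645 bp, and the rest were 13779 bp or longer. These shares were not adjusted for length.

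Shares under 10% were also found in other clustered families. In the epidermal differentiation complex of chromosome 1, a cluster of genes for the cornified layer of the skin, 2 of 45 genes (4.44%, 1.23 to 14.8) held a peak, and of the olfactory receptor genes of chromosome 11 it was 6 of 177 (3.39%, 1.56 to 7.20). The intervals of these families overlapped that of the keratins. Their genes are much shorter, with medians of 1727 bp in the epidermal differentiation complex, 1094 bp for the olfactory receptors and 974 bp for the KRTAP genes against 7098 bp for the keratins, and the shares were not adjusted for length.

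The promoters of the keratin genes differed from those of most genes in composition. In the 500 bp centred on the canonical start, 5 of 55 keratin promoters (9.09%) were CpG-rich, defined as a GC content of at least 50% and an observed to expected CpG ratio of at least 0.6, against 67.2% of all coding genes. These were KRT7, KRT81, KRT72, KRT18 and KRT19. The median CpG ratio was 0.286 in keratin genes and 0.775 in all coding genes, and the median GC content was 53.6% and 64.6%. The motif shares that follow count matches of letters on either strand anywhere in the 500 bp. They were not adjusted for GC content. A TATA box was present in 28 keratin promoters (50.9%, 33.3% on chromosome 12 and 67.9% on chromosome 17) against 11.9% of all, a GC box in 36.4% against 69.3%, and an AP-1 motif in that of KRT16 alone (1.82%) against 4.86%.

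Peaks within 1000 bp of the canonical start were found at 44.5% of coding genes with a CpG-rich promoter and at 14.9% of the others. None of the 5 CpG-rich keratin promoters had one (upper bound 43.4%), and among the 50 others 2 did (4%, 1.10 to 13.5). Over the gene and the 2000 bp before it, the 50 keratin genes without a CpG-rich promoter held a peak in 4 cases (8%, 3.15 to 18.8), against 38.0% of all 6596 coding genes of that class. Within this class the share of keratin genes was below that of the class as a whole, which includes the keratins. The shares were not matched for gene length, and the part of promoter composition in the result was not tested.

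Reads were kept only where they mapped to a single place, and some keratin genes are near-identical copies of each other. Of all stretches of 50 bases, 95.7% in the type II cluster and 93.6% in the type I cluster occur once in the genome. The median keratin gene had 97.4%. In 8 genes it was under 90%, the lowest being KRT81 at 62.7%, KRT6C at 70.8% and KRT6B at 74.5%. KRT8 and KRT18 had 90.4% and 91.3%. Among the 35 keratin genes with 95% or more, 3 held a peak. The part of sequence copies in the result was not tested.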

How the data were processed

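The deposited data are 1 list of broad peaks from 1 CHD4 ChIP library of 501Mel cells, and an input library was sequenced beside it. The authors mapped single reads to hg19, keeping reads with a single best place, and called peaks with MACS. The submitters' processing notes name bcl2fastq 2.17.1.14, Bowtie 1.0.0 and MACS2 2.1.1.20160309. The control of the call is not given in the sources used here, and the library kit differs between the labels and the methods. For each peak the authors deposited a fold enrichment, a linear ratio, and a p and q value as −log10. The study states a false discovery rate of 1% for its peaks, which is a −log10 q of 2. It also names the setting of the caller for broad peaks. In the list, however, the lowest −log10 q was 1.00 and the median 1.97. The peaks of KRT80, KRT86 and KRT20 are among those under 2. These peaks are in the deposited list all the same. How its q values relate to the stated rate is not given in the sources used here. The list has no counts. The sequencing depth that the study states for its libraries was not used here.

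Peak positions were counted from 1 and set against GRCh37 and GENCODE release 44 with Python 3.11.15, pandas 2.3.3, pysam 0.24.0 and scipy 1.17.1. An overlap of 1 bp with a gene or the 2000 bp before its start counted. Peaks on chromosome Y and the mitochondrial sequence (27) were left out. Windows of each cluster's length were tiled along the autosomes and the X chromosome, without those over 10% unsequenced. Genes of like length were within 25%. Shares carry Wilson 95% intervals. The overlap step was tested on simulated data. KRT8 and KRT18, every keratin with a peak, keratins without one by name, the 3 genes of each other list with the strongest peak, and the holders of each cluster's strongest peak were named. VIM, EIF4B, KRT10-AS1 and the epidermal differentiation and olfactory receptor families were chosen after their values were seen. Members, lists and role groups were chosen with earlier results of these data known. With 1 library there was no test. Other thresholds, reaches and windows were tried as alternatives.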

Additional observations from a re-analysis of the deposited data

How the results depend on the processing

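A count of genes or of peaks per Mb was taken as moved when it changed by more than 1.5 times, and a share of windows when it left the Wilson 95% interval of the value reported. Of 61 alternatives, 31 left the value in place and 30 moved it. With peaks of −log10 q 2 or more, the type II cluster had 0 peaks per Mb, the type I cluster 6.18, and the share of windows with fewer peaks than the type II cluster was 0, as it must be for a cluster without a peak, while 492 windows (13.9%) were at 0 as well. With −log10 q 5 or more, and with fold enrichment 4 or more, both clusters had 0 peaks per Mb. The share of windows with fewer peaks became 4.98% and 15.6% (type II and type I cluster) among windows with at least 10 coding genes, 15.3% by bases under peaks for the type II cluster, and, in comparisons added after the data were seen, 4.62% and 30.1% at like GC content and 20.9% and 19.2% on the same chromosome. Keratin genes with a peak were 1 at −log10 q 2, 0 at −log10 q 5 or fold enrichment 4, 2 in the gene body alone and 2 within 1000 bp of the start. Among all coding genes the share was 43.4% at −log10 q 2, 50.9% in the gene body alone and 33.9% within 1000 bp of the start. The keratin shares were 1.82%, 3.64% and 3.64%. With 5000 bp before the start, 60.7% of all coding genes had a peak. At −log10 q 5 and fold enrichment 4 the share of all coding genes was not computed, here or for the lists that follow. The other intermediate filament genes with a peak were 3 at −log10 q 5 and 2 at fold enrichment 4. The desmosome and plakin genes were 6, 2 and 3 under these 3 thresholds and 4 within 1000 bp of the start. The KRTAP genes were 1, 0 and 0 under the thresholds, 1 in the gene body and 4 with 5000 bp before the start. The thresholds count fewer peaks, the reaches other stretches of DNA, and the window settings another set of windows or another measure. KRT8 and KRT18 had 0 peaks under every alternative run for them, so that no strongest peak could be given for either. This was fixed in advance, since higher thresholds and shorter reaches can only remove peaks. The nearest peak, 43.4 kb from the KRT8 start and 44.5 kb from that of KRT18, also lies far beyond 5000 bp. These alternatives are among the 31 that left the value in place, but they could not have moved it. No paired analysis was possible because the CHD4 ChIP and the input are single libraries. The single library limits all values, and the list has no counts from which the depth at a site could be read.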
